A study of Homo sapiens with 6 samples.

Results

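The 38 genes followed here encode the ATPases and accessory subunits of human chromatin remodellers. They comprise 24 subunits of the SWI/SNF complexes, 8 members of the CHD family, the ISWI ATPases SMARCA1 and SMARCA5 with the NURF subunit BPTF, and INO80, EP400 and SRCAP of the INO80 and SWR1 class. Genes were listed by name, but the list was drawn up with earlier results of these data known. All 38 had at least 1 probe set naming no other gene, among 18242 genes so measured. Each gene was read from the probe set that was brightest on average over the 6 arrays. The members had 137 such probe sets in all, from 1 (4 genes) to 8 (SMARCA2).

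HK-2 cells are an immortalised line of human proximal tubule epithelium, carrying papillomavirus genes. To follow the transcriptional response to cisplatin, a platinum compound that crosslinks DNA, total RNA was measured on 2 arrays of untreated cells (control), 2 arrays of cells kept with 50 μM cisplatin for 6 h and 2 arrays of cells kept with 50 μM cisplatin for 24 h. All cultures shared one serum-free keratinocyte medium with epidermal growth factor and bovine pituitary extract. Replicates are called biological in the labels without mention of separate cultures, and the p-values therefore speak only of the spread among these arrays. Control cells have no stated time in culture, and cisplatin and culture time cannot be told apart.

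Remodellers use ATP to slide, evict or exchange nucleosomes and so set which stretches of DNA proteins can reach. SWI/SNF complexes, built around SMARCA4 or SMARCA2, open enhancers and promoters in 3 forms (BAF, PBAF and ncBAF) that differ in their accessory subunits. CHD proteins read histone marks or serve in the NuRD deacetylase complex, ISWI enzymes space nucleosomes, and the INO80 and SWR1 class exchanges the histone variant H2A.Z. Several of these genes, among them ARID1A and PBRM1, are tumour suppressors in kidney and other epithelia.

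Values are log2 signals, in which every array was set to one distribution by the authors, so a change is measured against the rest of that array. Replicate arrays correlated at 0.996 to 0.998 over all probe sets, and arrays of different groups at 0.961 to 0.985. Array medians lay between 4.45 and 4.54, and the medians of the nonspecific control probe sets between 2.41 and 2.55. Signals of the 36 spike-in probe sets, for RNAs that no human cell makes, exceeded control by 0.89 after 24 h and by 0.37 after 6 h. The 3′ minus 5′ difference of beta-actin, which reads RNA integrity, was 1.59 ± 0.68 in control cells, 1.77 ± 0.34 after 6 h and 2.40 ± 0.61 after 24 h (SD, n = 2 each). For GAPDH the same difference was 0.27 ± 0.005 in control cells, 0.25 ± 0.005 after 6 h and 0.35 ± 0.06 after 24 h, a smaller shift. The part of the spike-in signals and of these 3′ minus 5′ differences in the results below was not tested. Of 8 proximal tubule markers measured, 3 had a control mean above 4.5 and none exceeded 4.63, with LRP2 at 3.52 and AQP1 at 3.55, so the defining markers of the labelled tissue were near or below the array median. Of 7 renal epithelial markers, 5 lay above it in control cells. After 24 h PAX8 (−1.88), KRT19 (−2.12), KRT18 (−0.79) and EPCAM (−0.56) were lower and KRT8 (0.26) did not pass, while PAX2 at 3.66 and CDH1 at 3.36 in control cells were below the median. Of the tubule markers, CUBN (0.50) and SLC34A1 (0.39) were higher after 24 h and the others did not pass. Fibroblast and leukocyte markers had control means of at most 4.06, and of these 6 CD14 (0.78) and PDGFRA (0.46) were higher after 24 h. Of 3 endothelial markers, PECAM1 had a control mean of 4.56, and VWF, at 4.30 in control cells, was higher after 24 h by 0.47. The part of these markers in the results was not tested.

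After 24 h with cisplatin, 23 of the 38 remodeller genes were lower than in control cells, 7 were higher and 8 did not pass, so that 30 of 38 passed, against 54.2% of all genes (limma, Benjamini-Hochberg adjusted p under 0.05 over all genes). Lower genes made up 60.5% of the remodellers, against 23.0% of all genes, and higher genes 18.4%, against 31.2% of all genes. The median log2 fold change of the remodellers was −0.36, and that of all genes 0.10. Averaging the probe sets of each gene gave a remodeller median of −0.16, with 19 lower and 8 higher, and taking the probe set of largest variance gave 21 lower and 11 higher. After 6 h, 19 remodellers were lower, 5 higher and 14 did not pass, and 29.8% of all genes passed. These 6 h counts were 12 lower and 3 higher without control replicate 1, 14 and 3 without control replicate 2 or without 6 h replicate 1, and 13 and 2 without 6 h replicate 2, and 14 of the 24 calls survived every omission. The lower share was 50.0%, against 15.8% of all genes, the higher share was 13.2%, against 14.0%, and the medians were −0.25 for remodellers and 0.03 for all genes. At the threshold of a 2-fold change with an unadjusted p under 0.01, 10 remodellers were lower and 1 higher after 24 h (7.38% and 4.73% of all genes), and 5 lower and 0 higher after 6 h (3.46% and 1.47% of all genes). Every call at 6 h that was also made at 24 h had the same direction. Both comparisons share the control arrays. In pooled RNA a lower signal cannot tell fewer expressing cells from less RNA per cell.

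**Figure D1:**
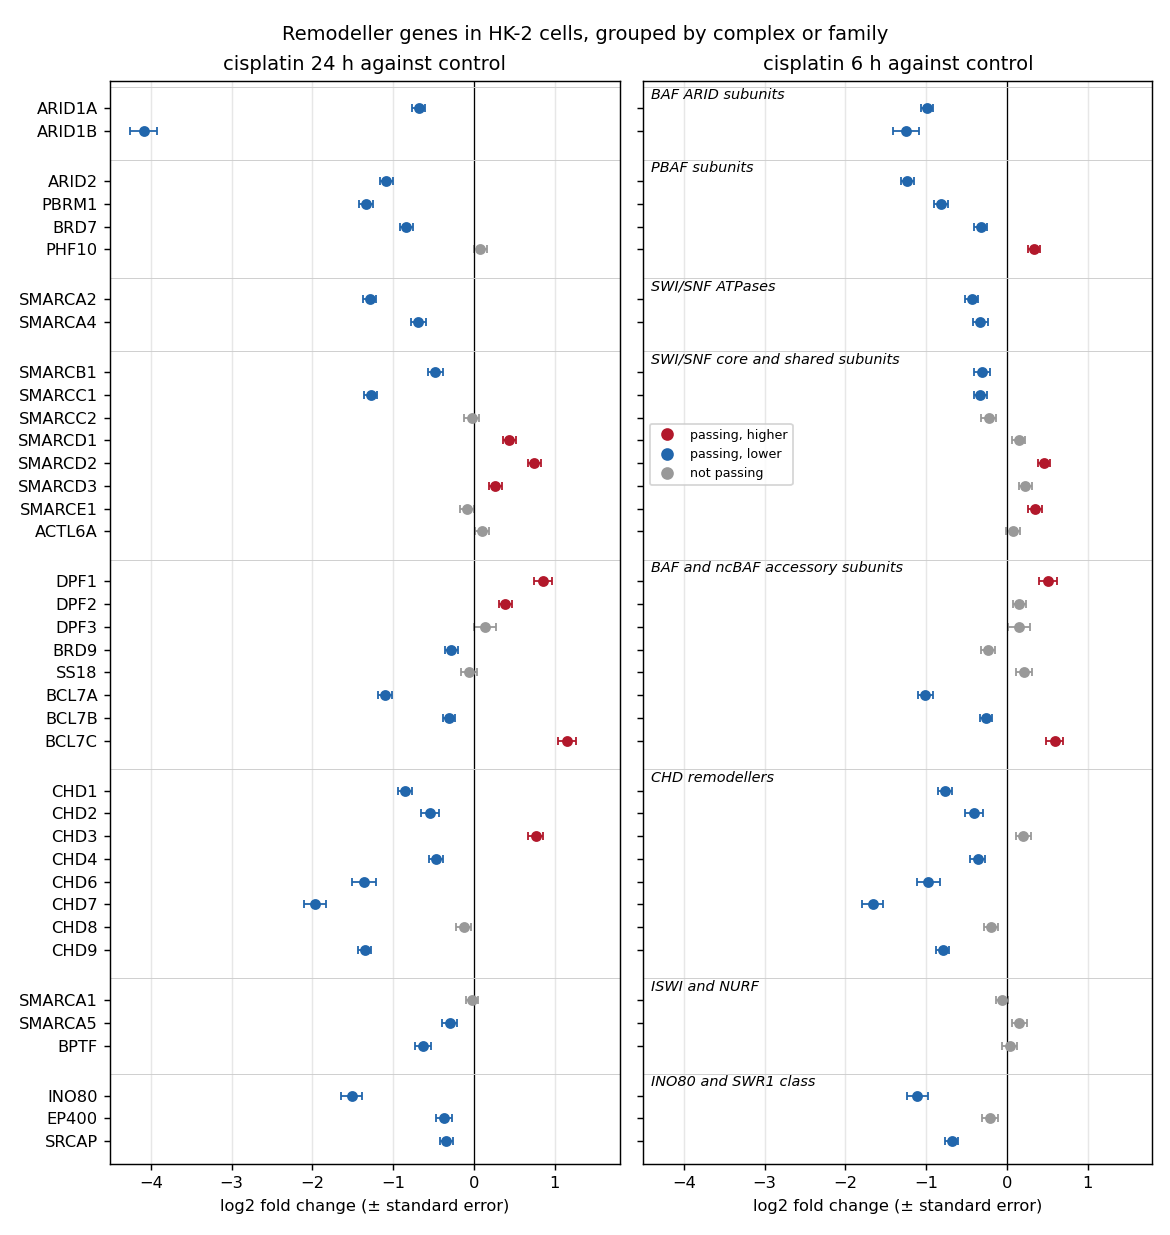
Log2 fold change of each of the 38 remodeller genes with its standard error (n = 2 arrays per group), for cisplatin 24 h against control on the left and cisplatin 6 h against control on the right, with red for genes that passed as higher, blue for lower and grey for not passing. ARID1B at −4.09 stands farthest from zero at 24 h, and the rises of BCL7C, DPF1, CHD3 and SMARCD2 lie between 0.75 and 1.15.

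The split between higher and lower genes depended on the scale. With arrays scaled to all 36 spike-ins, 34 remodellers were lower and 0 higher after 24 h, and 26 lower and 0 higher after 6 h. Of all 18242 genes, 16110 were then lower and 593 higher after 24 h, and 10248 lower and 690 higher after 6 h. The poly-A spike-ins alone gave 36 lower and 0 higher after 24 h and 30 lower and 0 higher after 6 h, and the hybridization spike-ins alone gave 30 lower and 4 higher after 24 h and 22 lower and 3 higher after 6 h. Over all genes, the poly-A spike-ins gave 17034 lower and 262 higher after 24 h and 13130 and 325 after 6 h. The hybridization spike-ins gave 9832 lower and 1731 higher of all genes after 24 h, and 3545 and 1544 after 6 h. With all or the poly-A spike-ins, most genes of the array were thus lower. All 23 genes lower after 24 h and all 19 lower after 6 h remained lower under these 3 scalings. Each scaling moves every gene of the treated arrays down against control, by 0.10 to 1.21. Genes already lower thus moved further down by construction, and their staying lower is no separate support for the falls. Of the 7 genes higher after 24 h, 0 remained higher with all or the poly-A spike-ins and 4 with the hybridization spike-ins, so each rise given below holds against the rest of the array. Scaling to all spike-ins moved the median of all genes to −0.78 at 24 h and −0.34 at 6 h, and scaling to 11 housekeeping genes moved it to 0.04 and −0.07.

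The promoters of genes at both ends of this range are shown because they are the sequences at the starts of the most changed members. RefSeq's table for GRCh38.p14 held a window of 300 bases, 250 before and 50 after the gene start, for 31 of the 38 members. Windows are given for ARID1B, INO80 and CHD9, which had the strongest falls at 24 h among members with a window, and for BCL7C and DPF1, which had the strongest rises. A window stands at the start of the gene record, and other start sites of a gene were not examined. They lie at chr6:156775776-156776075 on the plus strand (ARID1B), chr15:41116231-41116530 on the minus strand (INO80), chr16:53054741-53055040 on the plus strand (CHD9), chr16:30894028-30894327 on the minus strand (BCL7C) and chr19:38229646-38229945 on the minus strand (DPF1), each written 5′ to 3′ along the gene. Capitals mark matches on either strand to one of 5 motifs, which do not overlap one another here. The GC box was searched as GGGCGG and the CCAAT box by those letters. The ETS core was searched as CCGGAA. The cyclic AMP response element, CRE, was searched as TGACGTCA. The TATA box was searched as TATAAA.
ARID1B: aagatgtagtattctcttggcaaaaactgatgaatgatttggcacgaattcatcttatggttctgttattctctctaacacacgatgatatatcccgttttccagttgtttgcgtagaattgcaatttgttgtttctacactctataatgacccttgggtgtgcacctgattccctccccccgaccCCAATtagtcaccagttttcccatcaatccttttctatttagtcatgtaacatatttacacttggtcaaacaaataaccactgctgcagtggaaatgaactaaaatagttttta
INO80: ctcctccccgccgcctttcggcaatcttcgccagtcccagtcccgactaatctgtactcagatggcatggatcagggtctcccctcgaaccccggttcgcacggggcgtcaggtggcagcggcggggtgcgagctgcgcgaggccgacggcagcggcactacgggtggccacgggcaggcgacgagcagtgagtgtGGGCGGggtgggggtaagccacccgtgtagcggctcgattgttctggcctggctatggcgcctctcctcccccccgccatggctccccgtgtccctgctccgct
CHD9: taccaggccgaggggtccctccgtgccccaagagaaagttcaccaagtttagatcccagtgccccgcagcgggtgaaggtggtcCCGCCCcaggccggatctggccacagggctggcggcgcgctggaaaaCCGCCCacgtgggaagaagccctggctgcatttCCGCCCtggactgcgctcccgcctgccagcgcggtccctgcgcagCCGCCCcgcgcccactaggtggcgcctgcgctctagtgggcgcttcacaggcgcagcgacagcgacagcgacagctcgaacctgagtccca
BCL7C: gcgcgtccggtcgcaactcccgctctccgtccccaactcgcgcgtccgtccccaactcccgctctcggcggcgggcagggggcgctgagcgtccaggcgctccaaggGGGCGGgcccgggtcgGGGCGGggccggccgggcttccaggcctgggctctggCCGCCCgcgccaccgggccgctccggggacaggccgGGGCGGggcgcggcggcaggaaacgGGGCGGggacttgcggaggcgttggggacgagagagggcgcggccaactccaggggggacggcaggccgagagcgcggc
DPF1: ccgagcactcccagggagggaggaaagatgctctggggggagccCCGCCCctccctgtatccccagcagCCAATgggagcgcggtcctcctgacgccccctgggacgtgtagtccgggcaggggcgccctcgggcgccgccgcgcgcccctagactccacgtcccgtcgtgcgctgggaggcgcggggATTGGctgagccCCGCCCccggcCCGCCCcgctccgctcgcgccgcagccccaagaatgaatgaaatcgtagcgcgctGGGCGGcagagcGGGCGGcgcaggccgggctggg

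The ARID1B window held 5 CpG dinucleotides, 37.7% G and C and 1 CCAAT match with 0 GC boxes. INO80 had 30 CpGs and 1 GC box, CHD9 28 CpGs and 4 GC boxes, BCL7C 45 CpGs and 5 GC boxes, and DPF1 36 CpGs, 5 GC boxes and 2 CCAAT matches. Among the 31 members with a window, 25 held a GC box, against 45.0% of all 35116 promoters, and 11 held CCAAT, against 34.6%. The ETS core was in 8, against 17.2%, while the CRE and the TATA box were in 0, against 1.85% and 11.5%. Of the 18 genes with a window that were lower after 24 h, 16 held a GC box, as did 5 of the 7 higher ones. The median CpG count was 31 over the members, against 14 over all promoters, and was 30.5 in the genes lower after 24 h and 35 in those higher. All promoters here are every window of the RefSeq table and are not limited to the 18242 genes measured, so the 2 sets are unlike.

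ARID1A and ARID1B encode the mutually exclusive DNA-binding subunits that define the BAF form, and both were lower at both times. ARID1B had log2 signals of 7.75 and 7.89 in control cells, 6.64 and 6.51 after 6 h and 3.45 and 4.0 after 24 h. No array of one group overlapped with another, and both 24 h arrays lay below the array median, at levels such as those of LRP2 (3.71) and CD14 (3.88) after 24 h. No detection call was used, so the 24 h signal was not shown to be above background and the size of the fall is a difference of signals, not a measured fold of RNA. ARID1B differed from control by −4.09 after 24 h on the log2 scale (standard error 0.16, adjusted p = 4.46e-07) and by −1.25 after 6 h (standard error 0.16, adjusted p = 0.000538). The further fall of ARID1B between 6 h and 24 h was −2.85 (adjusted p = 2.29e-05). A second, dimmer ARID1B probe set fell by 0.94 after 24 h and by 0.56 after 6 h, with means of 3.90 after 24 h and 4.84 in control cells, so the direction held in both and the size did not. ARID1A had signals of 8.08 and 8.11 in control cells, 7.08 and 7.13 after 6 h and 7.41 and 7.40 after 24 h. Its fold change was −0.69 after 24 h (standard error 0.08, adjusted p = 0.000102) and −0.99 after 6 h (standard error 0.08, adjusted p = 3.43e-05). ARID1A was thus higher after 24 h than after 6 h, by 0.30 (adjusted p = 0.0145), but the sign turned to −0.21 with arrays scaled to all spike-ins. This call between the times was lost without either 6 h array (adjusted p = 0.0602 to 0.0918). Of its 6 probe sets, 4 passed as lower after 24 h, but only the brightest, 1 of 6, passed at 6 h.

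**Figure D2:**
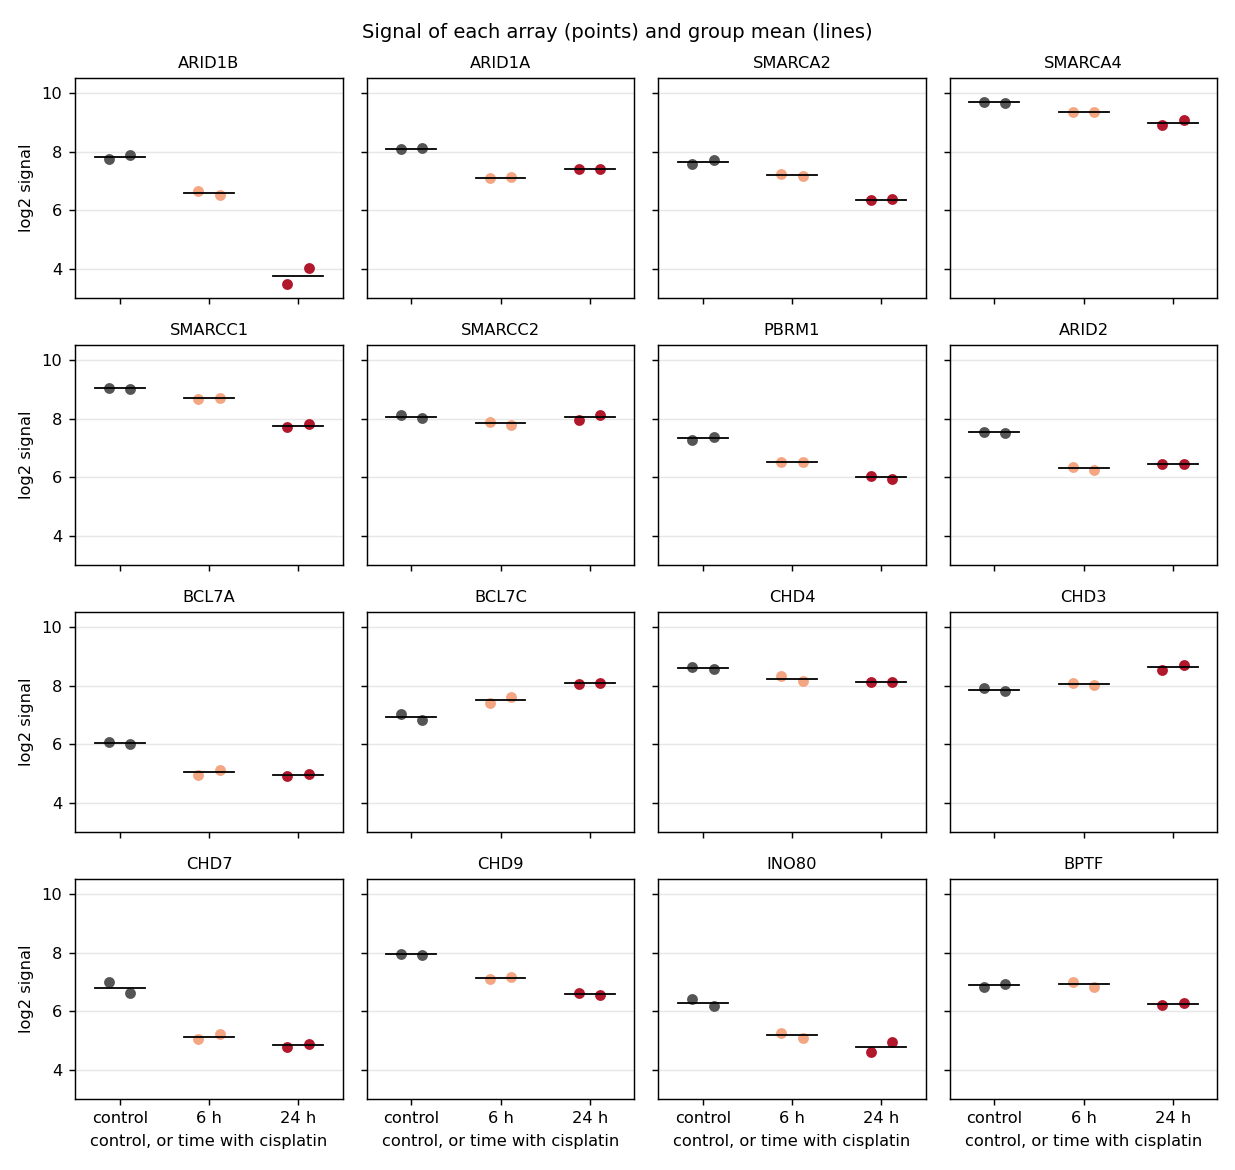
Log2 signal of each array (points) and the mean of the 2 arrays of a group (lines) for 16 remodeller genes, in control cells and after 6 h and 24 h with cisplatin. ARID1B drops to 3.45 and 4.0 after 24 h, against 7.75 and 7.89 in control cells, while SMARCC2 stays between 7.79 and 8.14 on every array and BCL7C and CHD3 are highest after 24 h.

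The PBAF form is marked by ARID2, the bromodomain scaffold PBRM1 (polybromo), BRD7 and the PHD-finger protein PHF10. The first 3 were lower at both times. PBRM1 signals were 7.27 and 7.38 in control cells, 6.51 and 6.51 after 6 h and 6.04 and 5.94 after 24 h, a stepwise fall without overlap. The log2 fold change was −1.34 after 24 h (standard error 0.08, adjusted p = 3.94e-06) and −0.81 after 6 h (adjusted p = 0.000154), and 24 h was lower than 6 h by −0.52 (adjusted p = 0.00179). ARID2 signals were 7.55 and 7.50 in control cells, 6.36 and 6.24 after 6 h and 6.43 and 6.45 after 24 h. The times did not differ beyond their spread (0.15, adjusted p = 0.195), with log2 fold changes of −1.08 after 24 h (standard error 0.08, adjusted p = 1.07e-05) and −1.23 after 6 h (standard error 0.08, adjusted p = 1.69e-05), and all 3 of its probe sets were lower at both times. BRD7, with 1 probe set, fell by 0.84 after 24 h (adjusted p = 4.09e-05) and by 0.33 after 6 h. The 6 h call of BRD7 was lost without either control array or without 6 h replicate 2 (adjusted p = 0.0580 to 0.119).

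PHF10 ran against the other PBAF genes. Its signals were 8.18 and 8.18 in control cells, 8.52 and 8.50 after 6 h and 8.30 and 8.21 after 24 h. It was higher after 6 h by 0.33 (standard error 0.08, adjusted p = 0.0126), and its difference of 0.08 after 24 h did not pass (adjusted p = 0.423). The 6 h call was lost without any 1 of the control or 6 h arrays (adjusted p = 0.0522 to 0.0781). Between the times PHF10 was lower at 24 h by −0.25 (adjusted p = 0.0339), a call lost without either 6 h array or without 24 h replicate 2 (adjusted p = 0.120 to 0.149). Its probe sets disagreed on that step, since the third brightest was higher at 24 h than at 6 h by 0.50 (adjusted p = 0.0177 over all probe sets) and higher at 24 h than in control cells by 0.48 (adjusted p = 0.0121).

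Both SWI/SNF ATPases were lower. SMARCA4 (BRG1) had signals of 9.71 and 9.65 in control cells, 9.34 and 9.36 after 6 h and 8.89 and 9.09 after 24 h. SMARCA4 was 1.61-fold lower after 24 h (log2 fold change −0.69, standard error 0.09, adjusted p = 0.00028) and stood at −0.33 after 6 h (adjusted p = 0.0256), and of its 6 probe sets all passed as lower after 24 h and 5 after 6 h. Its 6 h call was lost without any 1 of the control or 6 h arrays (adjusted p = 0.0767 to 0.116). SMARCA2 (BRM), the alternative ATPase, had signals of 7.58 and 7.70 in control cells, 7.22 and 7.18 after 6 h and 6.33 and 6.36 after 24 h. It fell further, with a log2 fold change of −1.29 after 24 h (standard error 0.08, adjusted p = 4.21e-06), 2.45-fold lower, and −0.44 after 6 h (adjusted p = 0.00399). Both ATPases were lower at 24 h than at 6 h, SMARCA2 by −0.85 (adjusted p = 0.000154) and SMARCA4 by −0.36 (adjusted p = 0.0153), the second lost without either 6 h array or without 24 h replicate 1 (adjusted p = 0.0626 to 0.0768). Whether the falls of the 2 ATPases differed was not tested. Of the 8 SMARCA2 probe sets, 7 passed as lower after 24 h and 5 after 6 h, and the dimmest passed as higher by 0.30 at 24 h, with a mean of 3.09 after 24 h and 2.79 in control cells.

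Of the 8 core and shared subunits, 2 were lower, 3 higher and 3 did not pass after 24 h. These shares, 25.0% lower and 37.5% higher, were near the 23.0% and 31.2% of all genes. SMARCC1 (BAF155), a scaffold of every SWI/SNF form, had signals of 9.04 and 9.02 in control cells, 8.68 and 8.71 after 6 h and 7.70 and 7.80 after 24 h. Most of its fall came between 6 h and 24 h. The log2 fold change was −1.28 after 24 h (standard error 0.08, adjusted p = 3.85e-06) and −0.33 after 6 h (adjusted p = 0.0137), the second lost without any 1 of the control or 6 h arrays (adjusted p = 0.0533 to 0.0852), and 24 h was lower than 6 h by −0.95 (adjusted p = 9.35e-05). Of its 4 probe sets all passed as lower after 24 h and 2 after 6 h. Its paralogue SMARCC2 (BAF170) had signals of 8.11 and 8.03 in control cells, 7.89 and 7.79 after 6 h and 7.94 and 8.14 after 24 h. The 24 h and control arrays of SMARCC2 overlapped, the 24 h mean differing from control by −0.03 (standard error 0.09, adjusted p = 0.821) and the 6 h mean by −0.23 (adjusted p = 0.111). The 2 dimmest SMARCC2 probe sets were higher after 24 h, by 0.75 and 0.30.

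SMARCB1 (SNF5), the subunit that contacts the nucleosome acidic patch, had signals of 7.66 and 7.44 in control cells, 7.25 and 7.22 after 6 h and 7.03 and 7.11 after 24 h. It was lower by −0.48 after 24 h (standard error 0.10, adjusted p = 0.00301) and by −0.31 after 6 h (standard error 0.10, adjusted p = 0.0406), and its 6 h call was lost without control replicate 1 or either 6 h array (adjusted p = 0.123 to 0.197). Of its 4 probe sets, 3 passed as lower after 24 h and 0 after 6 h in the fit over all probe sets. The BAF60 paralogues SMARCD1, SMARCD2 and SMARCD3, which link the complex to transcription factors, were the 3 higher genes, though with arrays scaled to all spike-ins their 24 h values were −0.45, −0.14 and −0.62. SMARCD2 had signals of 7.82 and 7.83 in control cells, 8.25 and 8.31 after 6 h and 8.57 and 8.58 after 24 h. Its log2 fold change was 0.75 after 24 h (standard error 0.08, adjusted p = 6.24e-05) and 0.46 after 6 h (adjusted p = 0.00223), and all 3 of its probe sets passed as higher at both times. SMARCD1 was higher by 0.44 after 24 h (adjusted p = 0.00215), with 0.14 after 6 h (adjusted p = 0.244).

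SMARCD3 was the weakest of these rises. Its signals were 5.92 and 5.89 in control cells, 6.18 and 6.09 after 6 h and 6.13 and 6.21 after 24 h, so 24 h exceeded control by 0.26 (standard error 0.08, adjusted p = 0.025) and 6 h by 0.23 (adjusted p = 0.0705). The 24 h call was lost without either control array or without 24 h replicate 2 (adjusted p = 0.0650 to 0.105). Its second probe set went the other way, lower by −0.38 after 24 h (adjusted p = 0.0337 over all probe sets). SMARCE1 (BAF57), a DNA-binding HMG subunit, was among the brightest members, at 9.83 and 9.92 in control cells, 10.25 and 10.19 after 6 h and 9.72 and 9.85 after 24 h. It was higher after 6 h by 0.34 (standard error 0.09, adjusted p = 0.017), a call lost without control replicate 1 or either 6 h array (adjusted p = 0.0614 to 0.104), and its 24 h value of −0.09 did not pass (adjusted p = 0.392). The step of SMARCE1 between the times was −0.43 (adjusted p = 0.00488). Its dimmest probe set was instead higher at 24 h than at 6 h by 0.63, and passed as higher at 24 h than in control cells, by 0.89. ACTL6A (BAF53A), the actin-like subunit, lay between 10.45 and 10.63 on every array and did not pass at either time.

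Accessory subunits of BAF and ncBAF moved in both directions. Of 8, 3 were lower and 3 higher after 24 h (37.5% each, against 23.0% and 31.2% of all genes). BCL7C, a small subunit of the ATPase module, had the strongest rise of the 38 genes, with signals of 7.03 and 6.81 in control cells, 7.40 and 7.62 after 6 h and 8.06 and 8.08 after 24 h. The log2 fold change was 1.15 after 24 h (standard error 0.11, adjusted p = 3.62e-05), 2.22-fold higher, and 0.59 after 6 h (standard error 0.11, adjusted p = 0.00343). Scaled to all spike-ins the 24 h value was 0.26 (adjusted p = 0.0735), and to the poly-A spike-ins −0.06. The second BCL7C probe set, near background at 2.59 after 24 h and 2.61 in control cells, gave −0.02. Its paralogue BCL7A had signals of 6.07 and 6.01 in control cells, 4.95 and 5.11 after 6 h and 4.90 and 4.98 after 24 h. BCL7A was thus lower from 6 h on, by −1.10 after 24 h (standard error 0.09, adjusted p = 1.49e-05) and by −1.01 after 6 h (standard error 0.09, adjusted p = 6.56e-05). BCL7B was lower by −0.31 after 24 h (adjusted p = 0.00885) and by −0.26 after 6 h (adjusted p = 0.0355), and this 6 h call was lost without any 1 of the control or 6 h arrays (adjusted p = 0.0833 to 0.167). The paralogues BCL7A and BCL7C thus moved in opposite directions at both times relative to the array, but BCL7C passed as higher at neither time with arrays scaled to all or the poly-A spike-ins.

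The DPF genes encode the double PHD-finger subunits that read acetylated histone H3. DPF1, best known from neuronal BAF, had signals of 5.29 and 5.07 in control cells, 5.65 and 5.72 after 6 h and 6.15 and 5.91 after 24 h. It was higher by 0.85 after 24 h (standard error 0.11, adjusted p = 0.000253) and by 0.51 after 6 h (standard error 0.11, adjusted p = 0.0085), and of its 5 probe sets 4 passed as higher after 24 h and 2 after 6 h. With arrays scaled to all spike-ins the 24 h value of DPF1 was −0.03. The 6 h call of DPF1 was lost without replicate 2 of control or of 6 h (adjusted p = 0.0714 and 0.0547). Of the 3 neuron markers measured, SNAP25 was at 5.86 after 24 h and 6.47 in control cells, SYT1 at 3.18 after 24 h and 3.51 in control cells, and STMN2 at 4.29 after 24 h and 4.16 in control cells. None of the 3 passed as higher after 24 h, and SNAP25 and SYT1 passed as lower. DPF2, the widely expressed paralogue, was higher by 0.39 after 24 h (adjusted p = 0.00406) and by 0.15 after 6 h (adjusted p = 0.224, not passing). DPF3 lay between 3.04 and 3.46 on all arrays, under the array median, and did not pass, although its other probe set passed as higher after 24 h. BRD9, which defines ncBAF, was lower by −0.28 after 24 h (adjusted p = 0.022), a call lost without control replicate 1 or 24 h replicate 1 (adjusted p = 0.0980 without the 24 h array). SS18, its partner and a subunit of BAF as well, did not pass at either time (−0.06 after 24 h, adjusted p = 0.605), although 2 of its dimmer probe sets were higher after 24 h, by 0.54 and 0.41.

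Of 8 CHD genes, 6 were lower at both times by their brightest probe set. CHD3 was higher after 24 h and CHD8 did not pass. The lower share was 75.0% at each time, against 23.0% of all genes after 24 h and 15.8% after 6 h. CHD7, the chromodomain helicase mutated in CHARGE syndrome, had signals of 6.98 and 6.60 in control cells, 5.04 and 5.22 after 6 h and 4.76 and 4.89 after 24 h. The fall was mostly present by 6 h, with a log2 fold change of −1.97 after 24 h (standard error 0.13, adjusted p = 5.82e-06) and −1.66 after 6 h (standard error 0.13, adjusted p = 4.14e-05), and the times did not differ beyond their spread (−0.31, adjusted p = 0.107). CHD9 signals were 7.95 and 7.92 in control cells, 7.11 and 7.17 after 6 h and 6.63 and 6.53 after 24 h. It was lower by −1.35 after 24 h (standard error 0.08, adjusted p = 3.04e-06) and by −0.79 after 6 h (adjusted p = 0.000148), and lower again at 24 h than at 6 h by −0.56 (adjusted p = 0.00105). CHD6, of the same subfamily, had signals of 6.16 and 6.43 in control cells, 5.37 and 5.27 after 6 h and 4.72 and 5.14 after 24 h, with log2 fold changes of −1.36 after 24 h (standard error 0.15, adjusted p = 8.25e-05) and −0.97 after 6 h (adjusted p = 0.00121). A second CHD6 probe set gave 0.33 after 24 h and did not pass. CHD8, the remaining member of that subfamily, was at −0.13 after 24 h (adjusted p = 0.252) and −0.20 after 6 h (adjusted p = 0.145).

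CHD1, which binds methylated H3K4, was lower by −0.85 after 24 h (adjusted p = 5.39e-05) and by −0.77 after 6 h (adjusted p = 0.000225). CHD2 signals were 6.98 and 6.86 in control cells, 6.38 and 6.65 after 6 h and 6.29 and 6.46 after 24 h, which placed 24 h below control by −0.54 (standard error 0.11, adjusted p = 0.00384) and 6 h by −0.40 (adjusted p = 0.0275). The 6 h call of CHD2 was lost without either control array or without 6 h replicate 1 (adjusted p = 0.0716 to 0.183). A dim second probe set was higher after 24 h by 0.78, at 3.97 after 24 h and 3.19 in control cells. Of the 3 CHD2 probe sets only the brightest, 1 of 3, was below control at either time. Their average gave 0.13 after 24 h and 0.019 after 6 h, so the fall of CHD2 rests on 1 probe set. The NuRD ATPases CHD4 and CHD3 moved in opposite directions after 24 h, though not with arrays scaled to all or the poly-A spike-ins. CHD4 (Mi-2 beta) signals were 8.64 and 8.57 in control cells, 8.33 and 8.16 after 6 h and 8.14 and 8.13 after 24 h, lower by −0.47 after 24 h (adjusted p = 0.00209) and by −0.36 after 6 h (adjusted p = 0.0146), the second lost without control replicate 1 or 6 h replicate 2 (adjusted p = 0.0795 and 0.125). CHD3 (Mi-2 alpha) had signals of 7.90 and 7.82 in control cells, 8.10 and 8.02 after 6 h and 8.53 and 8.72 after 24 h. It was higher by 0.76 after 24 h (standard error 0.09, adjusted p = 0.000162) and by 0.56 between the times (adjusted p = 0.00197), while its 6 h value of 0.20 did not pass (adjusted p = 0.143). All 5 CHD3 probe sets passed as higher after 24 h, and the value was −0.12 with arrays scaled to all spike-ins.

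BPTF, the large NURF subunit that reads methylated H3K4, was lower after 24 h. Its signals were 6.82 and 6.94 in control cells, 7.01 and 6.82 after 6 h and 6.21 and 6.28 after 24 h, so the 6 h arrays overlapped with control and the 24 h arrays did not. The log2 fold change was −0.63 after 24 h (standard error 0.09, adjusted p = 0.000586) and 0.04 after 6 h (adjusted p = 0.832), and all 6 BPTF probe sets passed as lower after 24 h. At 6 h the probe sets disagreed, with 2 of 6 above zero and 2 of the dimmer ones passing as lower, and their average gave −0.29 (adjusted p = 0.0271). SMARCA5 (SNF2H), the main ISWI ATPase, had signals of 9.77 and 9.88 in control cells, 10.00 and 9.96 after 6 h and 9.43 and 9.63 after 24 h. It was lower by −0.30 after 24 h (standard error 0.09, adjusted p = 0.0256), a call lost without control replicate 2 or 24 h replicate 1 (adjusted p = 0.133 and 0.135), and its other probe set, almost as bright, was higher by 0.45 (adjusted p = 0.00444 over all probe sets). No direction can therefore be given for SMARCA5. SMARCA1 (SNF2L) lay between 3.38 and 3.48 on every array and did not pass.

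All 3 genes of the INO80 and SWR1 class were lower after 24 h by their brightest probe set, against 23.0% of all genes. INO80, the ATPase of its complex, had signals of 6.41 and 6.16 in control cells, 5.26 and 5.08 after 6 h and 4.61 and 4.93 after 24 h. The log2 fold change was −1.52 after 24 h (standard error 0.13, adjusted p = 2.51e-05), 2.86-fold lower, and −1.11 after 6 h (standard error 0.13, adjusted p = 0.000346), and all 4 of its probe sets passed as lower at both times. Its step of −0.41 between the times (adjusted p = 0.0425) was lost when any 1 array other than 24 h replicate 2 was left out (adjusted p = 0.0503 to 0.213). SRCAP, which deposits H2A.Z, had signals of 5.74 and 5.74 in control cells, 5.11 and 5.00 after 6 h and 5.43 and 5.37 after 24 h, lowest at 6 h. SRCAP was lower by −0.34 after 24 h (adjusted p = 0.00729) and by −0.69 after 6 h (adjusted p = 0.000325), and like ARID1A it was higher at 24 h than at 6 h (0.34, adjusted p = 0.0114, turning to −0.17 when scaled to all spike-ins), a call lost without 6 h replicate 2 (adjusted p = 0.0903). Of the 3 SRCAP probe sets only this brightest one passed at either time, and the other 2 gave 0.14 and 0.11 after 24 h. EP400 signals were 6.11 and 5.99 in control cells, 5.78 and 5.91 after 6 h and 5.60 and 5.76 after 24 h. Its 24 h value of −0.37 (standard error 0.09, adjusted p = 0.0103) lost its call without control replicate 1 or 24 h replicate 1 (adjusted p = 0.0646 and 0.0580), and of its 6 probe sets 3 passed as lower and 1 as higher.

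In time, 19 genes were lower at both 6 h and 24 h by their brightest probe set. Of these, 8 were lower still at 24 h (ARID1B, PBRM1, BRD7, SMARCA2, SMARCA4, SMARCC1, CHD9 and INO80), 2 were higher at 24 h than at 6 h (ARID1A and SRCAP) and 9 did not pass between the times. By their brightest probe set, BRD9, SMARCA5, BPTF and EP400 passed as lower at 24 h and not at 6 h. The probe sets of SMARCA5 and EP400 disagreed at 24 h, and those of BPTF at 6 h. SMARCD2, DPF1 and BCL7C were higher at both times, SMARCD1, SMARCD3, DPF2 and CHD3 passed as higher at 24 h and not at 6 h, and PHF10 and SMARCE1 at 6 h and not at 24 h. The 6 genes that passed at neither time were SMARCC2, ACTL6A, DPF3, SS18, CHD8 and SMARCA1. Shares of all genes with each of these patterns were not counted, and the 24 h and 6 h comparisons share the control arrays. The pattern counts therefore only describe the members. Taken singly, 23.0% of all genes were lower and 31.2% higher after 24 h, and 15.8% lower and 14.0% higher after 6 h. Tested directly between the times, 12 genes were lower at 24 h than at 6 h and 7 higher (31.6% and 18.4% of the remodellers, against 16.7% and 21.2% of all genes, and 37.9% in either direction). By the 2-fold rule ARID1B alone was lower and 0 genes were higher between the times, with 2.03% of all genes lower, 1.34% higher and 3.37% in either direction. The steps of ARID1A, PHF10, SMARCA4, SMARCD1, SMARCD2, DPF1, INO80 and SRCAP did not survive the omission of every single array, and the count of higher genes was 2 without 6 h replicate 2, 3 without 6 h replicate 1 and 4 without 24 h replicate 1. For SMARCD1, SMARCD2 and DPF1 the adjusted p ranged from 0.0594 to 0.144, from 0.0517 to 0.111 and from 0.0909 to 0.192 over the omissions that ended the call, which were either 6 h array or 24 h replicate 1, and for SMARCD2 also 24 h replicate 2.

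**Figure D3:**
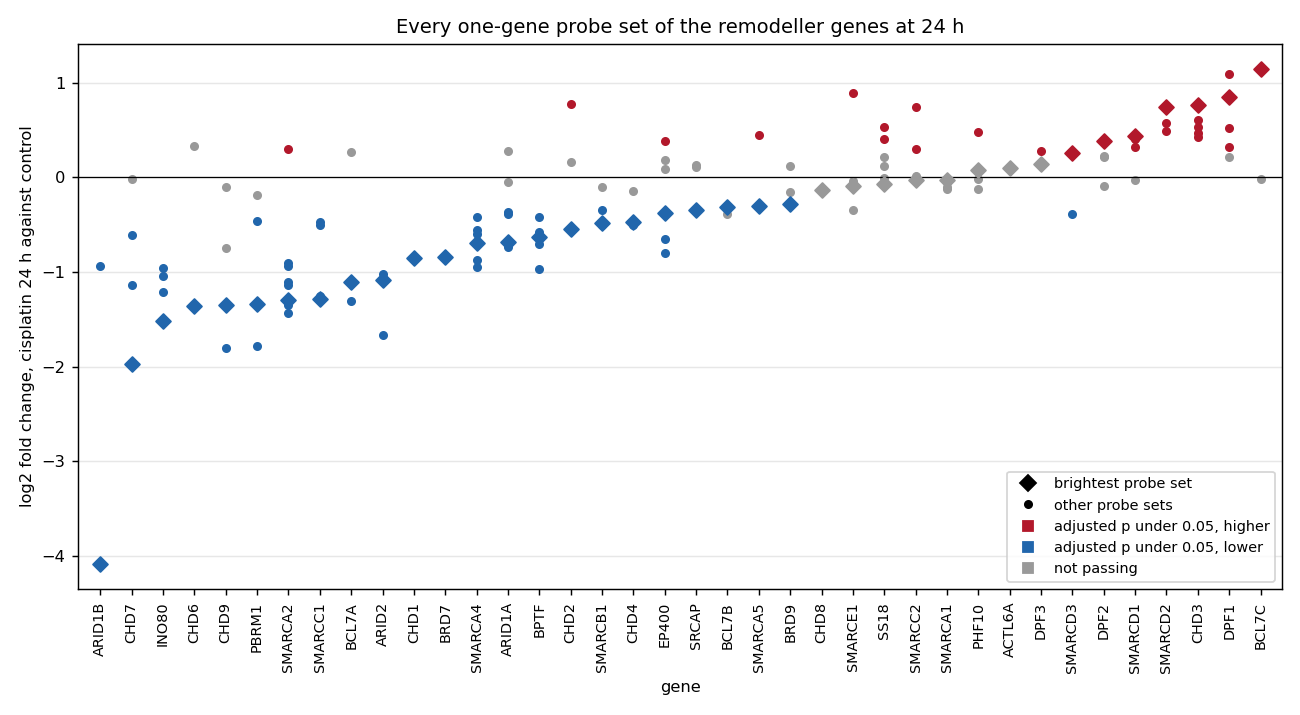
Log2 fold change at 24 h against control of all 137 probe sets that name a single remodeller gene, with diamonds for the brightest probe set of each gene, circles for the others and colour for the call in the fit over all such probe sets. Genes run from the lowest to the highest brightest probe set, and SMARCA2, CHD2, EP400, SMARCA5 and SMARCD3 have passing probe sets on both sides.

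Gene span, the length of the gene in the RefSeq annotation, had a median of 65.7 kb over the 38 genes and of 25.7 kb over all genes. It was 128 kb for genes lower after 24 h and 20.4 kb for those higher. Spearman's rho between span and log2 fold change was −0.73 after 24 h and −0.62 after 6 h over the 38 members, and −0.350 and −0.244 over 18177 genes. These are descriptions across genes measured in the same 6 arrays, and genes are not independent replicates. The 3 members under 20 kb (DPF1, SMARCD1 and SMARCD2) had a median of 0.75 after 24 h, against 0.20 for all genes of that span. The 10 members between 100 and 200 kb had a median of −1.18, against −0.27 for all genes of that span, and the 4 over 200 kb, of which DPF3 did not pass, had −1.36 against −0.11. ARID1B was the longest, at 435 kb. BCL7A, at 40.2 kb, had −1.10, and BCL7C, at 60.5 kb, was the longest of the genes that rose. The part of gene length in the falls was not tested.

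**Figure D4:**
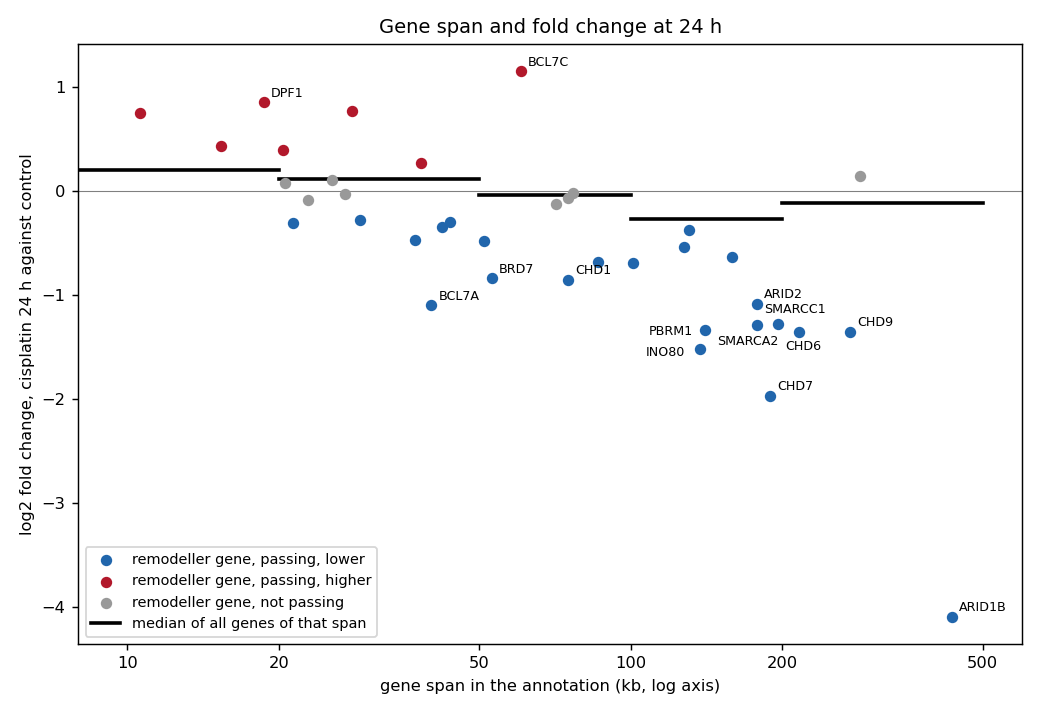
Log2 fold change at 24 h against control of each remodeller gene by its span in kb (log axis), with black bars at the median of all genes in each of 5 span classes (the first and last class run past the ends drawn). Members over 100 kb lie between −0.37 and −4.09 except DPF3 at 0.14, and most lie below the median of all genes of that span.

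A wider list of 61 partners and relatives of these remodellers had 31 genes lower and 12 higher after 24 h (50.8% and 19.7%, against 23.0% and 31.2% of all genes, median −0.25) and 25 lower and 4 higher after 6 h (41.0% and 6.56%, against 15.8% and 14.0% of all genes, median −0.22). Of 11 NuRD partners, 6 were lower and 1 higher after 24 h. GATAD2B, which bridges CHD4 to the deacetylase core, was lower by −1.34 after 24 h and by −1.07 after 6 h, and MTA3 by −1.13 and −1.15. Among 8 ISWI partners, 6 were lower and 1 higher at each time, with BAZ2B at −1.27 and BAZ1B at −1.07 after 24 h and the histone-fold gene POLE3 at 0.54. The 25 partners of INO80, SRCAP and TIP60 were divided, with 10 lower and 8 higher after 24 h and 10 lower and 3 higher after 6 h. Those lower included YEATS4 at −1.09 and the scaffold TRRAP at −1.01 after 24 h, and those higher BRD8 at 1.01, NFRKB at 0.92, ZNHIT1 at 0.67 and TFPT at 0.64. BRD8 was at −0.03 after 6 h and was higher at 24 h than at 6 h by 1.04. Of 5 SWI/SNF partners, 3 were lower and 0 higher after 24 h.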

How the data were processed

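Total RNA of HK-2 cells was hybridised to 6 Affymetrix Human Genome U219 arrays, 2 per group. The deposited log2 values were made by the authors with RMA in Affymetrix Expression Console 1.1, which corrects background, sets all arrays to one distribution and summarises probes, so a shift of total RNA is not seen. Of 49386 probe sets, 45253 named 1 gene by the platform annotation, and the one with the highest mean over the 6 arrays stood for each of 18242 genes. Probe sets of several genes (1327) or none (2713) and 93 controls entered no gene test.

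One model of 3 groups was fitted with limma 3.58.1 (lmFit and eBayes, R 4.3.3), with two-sided p-values adjusted by Benjamini-Hochberg over all genes and 0.05 as the threshold. Probe-set p-values come from a separate fit over the 45253 probe sets. The scripts were tested on simulated data. The members and gene lists were chosen with earlier results of these data known. Every array value is given for members that passed with a log2 change of at least 1, for those with passing probe sets in opposite directions and for the shared ATPases and scaffolds. Of the wider list, the 5 strongest rises and falls at each time could be named. Alternatives covered 19 settings, among them scaling to spike-ins, other probe-set rules, a replicate block and each array left out. Promoters came from RefSeq, GRCh38.p14.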

Additional observations from a re-analysis of the deposited data

Results flagged for a closer look

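For 19 of the 38 remodeller genes the 24 h arrays differed from the 6 h arrays (limma, adjusted p under 0.05), against 37.9% of all genes. Of these 19 calls, 11 survived the omission of every single array. Cisplatin and culture time cannot be told apart in this difference. The 24 h minus 6 h difference on the log2 scale was −2.85 for ARID1B, −0.95 for SMARCC1, −0.85 for SMARCA2, −0.67 for BPTF, −0.56 for CHD9, −0.52 for PBRM1, −0.51 for BRD7, −0.45 for SMARCA5, −0.43 for SMARCE1, −0.41 for INO80, −0.36 for SMARCA4 and −0.25 for PHF10. It was 0.56 for BCL7C, 0.56 for CHD3, 0.34 for DPF1, 0.34 for SRCAP, 0.30 for ARID1A, 0.29 for SMARCD1 and 0.29 for SMARCD2. The second ARID1B probe set differed by −0.38 between the times. The 2 SMARCA5 probe sets differed in sign between the times, and PHF10, SMARCA2 and SMARCE1 had probe sets passing in both directions.

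Among probe sets that match more than 1 gene and entered no comparison, one shared by SSX4B, SSX4 and SS18 was higher than in control by 0.88 after 24 h and by 0.31 after 6 h. It was dim, at 3.30 and 3.61 after 24 h and 2.64 and 2.49 in control cells, and no test was made.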

How the results depend on the processing

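Left out 1 at a time, the arrays gave 20 to 23 lower and 6 to 7 higher remodellers at 24 h (median −0.42 to −0.35), 12 to 19 lower and 2 to 5 higher at 6 h (median −0.28 to −0.19), and 9 to 12 lower and 2 to 7 higher between the times (median −0.13 to −0.08). The replicate numbers did not pair the samples (correlations of deviations 0.046, −0.056 and −0.058), and a fit with the replicate number as a block kept all 30 calls at 24 h, 17 of 19 lower and all 5 higher at 6 h, and 11 of 12 lower and all 7 higher between the times. With arrays scaled to all spike-ins the median was −1.24 for 24 h, −0.62 for 6 h and −0.61 for the step between, with the hybridization ones −0.77, −0.34 and −0.41, and with the poly-A ones −1.57, −0.79 and −0.77. For that step the 3 scalings gave 30, 26 and 31 lower and 0 higher. Of all 18242 genes they gave 12877, 8034 and 14338 lower and 462, 1030 and 196 higher for the same step. Scaling to the hybridization spike-ins gave 4 higher at 24 h and 3 at 6 h, all spike-ins and the poly-A spike-ins gave 0 higher at both, and the poly-A spike-ins 36 lower at 24 h and 30 at 6 h. Scaling to the median of all probe sets gave a median of −0.41 at 24 h, and −0.18 with 3 higher between the times. Scaling to housekeeping genes gave a median of −0.42 at 24 h, and −0.34 with 3 higher at 6 h. Averaging probe sets gave a median of −0.16 at 24 h, and a minimum signal of log2 5 in 2 arrays gave −0.42 over 36 genes. The probe set of largest variance gave 11 higher for 24 h, 3 for 6 h and 11 for the step between. An adjusted p under 0.01 left 12 lower and 3 higher at 6 h and 2 higher between the times, and the 2-fold rule left 10 lower and 1 higher at 24 h, 5 lower and 0 higher at 6 h, and 1 lower and 0 higher between the times. With scaling to all spike-ins, the sign turned at 24 h for PHF10 (−0.81), SMARCD1 (−0.45), SMARCD2 (−0.14), SMARCD3 (−0.62), ACTL6A (−0.78), DPF1 (−0.032), DPF2 (−0.50), DPF3 (−0.75), CHD3 (−0.12), and at 6 h for PHF10 (−0.039), SMARCE1 (−0.030), ACTL6A (−0.30), BPTF (−0.34), and between the times for ARID1A (−0.21), SMARCD1 (−0.22), SMARCD2 (−0.22), DPF1 (−0.17), SRCAP (−0.17). With scaling to the hybridization spike-ins, the sign turned at 24 h for PHF10 (−0.33), SMARCD3 (−0.15), ACTL6A (−0.31), DPF2 (−0.022), and between the times for ARID1A (−0.0082), SMARCD1 (−0.021), SMARCD2 (−0.021). With scaling to the poly-A spike-ins, the sign turned at 24 h for PHF10 (−1.13), SMARCD1 (−0.78), SMARCD2 (−0.46), SMARCD3 (−0.95), ACTL6A (−1.11), DPF1 (−0.36), DPF2 (−0.82), DPF3 (−1.07), BCL7C (−0.062), CHD3 (−0.45), and at 6 h for PHF10 (−0.21), SMARCD1 (−0.40), SMARCD2 (−0.086), SMARCE1 (−0.20), ACTL6A (−0.47), DPF1 (−0.031), DPF2 (−0.39), DPF3 (−0.39), SMARCA5 (−0.39), BPTF (−0.51), and between the times for ARID1A (−0.37), SMARCD1 (−0.38), SMARCD2 (−0.38), DPF1 (−0.33), BCL7C (−0.11), CHD3 (−0.11), SRCAP (−0.33). With the average over a gene’s probe sets, the sign turned at 24 h for SMARCC2 (0.26), SMARCD3 (−0.060), SS18 (0.20), CHD2 (0.13), SMARCA5 (0.077), and at 6 h for CHD2 (0.019), BPTF (−0.29), and between the times for ARID1A (−0.0048), PHF10 (0.047). With the probe set of largest variance, the sign turned at 24 h for SMARCC2 (0.75), SMARCD3 (−0.38), SMARCE1 (0.89), SS18 (0.54), CHD2 (0.78), and at 6 h for PHF10 (−0.014), CHD2 (0.22), and between the times for PHF10 (0.50), SMARCE1 (0.63). Over single genes, 1503 values kept sign and side of the threshold, 189 lost it, 39 gained it and 70 turned, and the cause was not tested. With 2 arrays a group, the number of arrays limits the precision.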

Other observations

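The 2 probe sets shared by KRT222 and SMARCE1 were lower than in control cells after 24 h, by −0.31 and −0.32, and differed by −0.07 and −0.11 after 6 h, where the brightest probe set of SMARCE1 alone was higher by 0.34. A probe set shared by BPTF and the pseudogenes ARHGAP27P1 and PLEKHM1P1 differed from control by −0.19 after 24 h and by −0.27 after 6 h. A probe set shared by SSX2 and SS18 differed by 0.07 after 24 h and by −0.15 after 6 h. Other ATPases of the SNF2 family had 6 genes lower and 2 higher of 10 after 24 h, against 23.0% and 31.2% of all genes. After 6 h, 4 of these 10 were lower and 0 higher, against 15.8% and 14.0% of all genes.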
